A study of Mus musculus with 6 samples.

Results

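Ferritin and haem metabolism were followed through 10 genes: the ferritin chains Fth1 and Ftl1, the haem oxygenases Hmox1 and Hmox2, the biliverdin reductases Blvra and Blvrb, the haem transporters Slc48a1 and Flvcr1, and Alas1 and Fech, the first and the last enzyme of haem synthesis. The genes were chosen by symbol from the 26106 genes of the deposited table, with the difference between ZM and Ctrl libraries already known, so their fold changes and calls are given as descriptions. All 10 passed the filter on low counts, among 15590 genes tested. The libraries were mRNA-seq of primary bone marrow-derived macrophages from wild-type male C57BL/6 mice aged 6 weeks, the precursors of bone-resorbing osteoclasts. ZM cells (n = 3) and Ctrl cells (n = 3) were all kept for 2 days in alpha-MEM with 10% FBS, M-CSF at 30 ng/mL and RANKL at 100 ng/mL, the cytokine that drives osteoclast formation. ZM cells also had 10 uM ZM, named ZM-306416 in the series title and known as an inhibitor of VEGF receptor kinases, whereas no vehicle is named for Ctrl cells. The labels put all libraries in 1 batch and leave unsaid which animal or culture each library was made from. The spread between the 3 libraries of a group, and any p-value resting on it, may therefore be technical.

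Haem is an iron-containing ring that is built partly in mitochondria. Macrophages take it up in large amounts when they clear red cells. Haem oxygenase opens the ring and releases iron, carbon monoxide and biliverdin, which biliverdin reductase turns into bilirubin, and freed iron is stored inside a shell of ferritin heavy and light chains. Ferritin, Hmox1 and several other genes of this path are known targets of the stress-responsive factor Nrf2, and haem itself relieves their repression by Bach1.

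The messengers of both ferritin chains carry an iron responsive element, a hairpin in the 5′ untranslated region to which iron regulatory proteins bind when iron is scarce and then block translation. The elements are shown because ferritin is also set at this step, which counts of messenger RNA do not measure. They were read from GENCODE M21 transcripts (GRCm38) by a search for a CAGTGN loop on a stem of 5 pairs, G-T pairs allowed, with an unpaired C on its 5′ side, and the loop is in capitals.
Fth1: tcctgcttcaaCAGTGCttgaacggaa
Ftl1: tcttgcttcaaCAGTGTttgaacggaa
The Fth1 element lies on chromosome 19 at 9982733 to 9982759, forward strand, and the Ftl1 element on chromosome 7 at 45459780 to 45459806, reverse strand. Counted from 1 at the 5′ end, with the Fth1 base first, the elements differ by C3T and C17T, the second at the last base of the loop. Of 22527 coding genes, 31 (0.14%) had such a hairpin in an annotated 5′ untranslated region, and among the 10 genes these were Fth1 and Ftl1.

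Library totals were 51329237 to 54256377 counts in ZM and 45512004 to 49613493 counts in Ctrl. Levels between libraries are in CPM, counts relative to library sizes scaled by TMM, a factor for differences in RNA composition. ZM replicate 3 stood apart, with a TMM factor of 0.919 against 0.995 and 1.02 in ZM replicates 1 and 2 and 1.02 to 1.03 in Ctrl. The log2 folds of the 10 genes are therefore also given without it. The macrophage markers Adgre1, Csf1r, Cd68, Mertk, Fcgr1, Lyz2 and Itgam were all detected, with a summed level of 18510 to 38480 CPM in ZM and 10100 to 11520 CPM in Ctrl, and 4 of 7 were called higher with ZM. All 8 osteoclast markers were called lower, with sums of 473 to 849 CPM in ZM and 4661 to 4944 CPM in Ctrl, and ZM replicate 3 was at the extreme of both lists. In bulk RNA, fewer cells of a type and less RNA per cell cannot be told apart, and the part of cell composition in the values below was not tested.

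With ZM, both ferritin chains, Hmox1, Blvrb and Slc48a1 were higher, with log2 folds of 0.64 to 1.15. Blvra was higher by less, Hmox2 overlapped between the groups, and Alas1, Flvcr1 and Fech had log2 folds of -0.18 to 0.24. Called means an adjusted p under 0.05 in edgeR's quasi-likelihood test over all genes, a threshold that 11.0% of them passed, 5.54% upward and 5.44% downward. Of the 10 genes, 5 were called higher with ZM (Fth1, Ftl1, Hmox1, Blvrb and Slc48a1), 0 were called lower and 5 were not called. The groups did not overlap for 7 genes that were higher and 2 that were lower with ZM, and 42.9% of all genes tested showed no overlap. The median log2 fold was 0.57 over the 10 genes and 0.003 over all genes tested. As the genes were chosen with this comparison known, nothing is read from these counts. All 5 calls were lost without any 1 of the 3 Ctrl libraries or ZM replicate 1, where 0 of the 10 genes were called by edgeR and 6 had an unadjusted p under 0.05. Calls over all genes also fell, from 1711 to 180, 224 and 148 without Ctrl replicates 1, 2 and 3, and to 669 without ZM replicate 1.

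**Figure D1:**
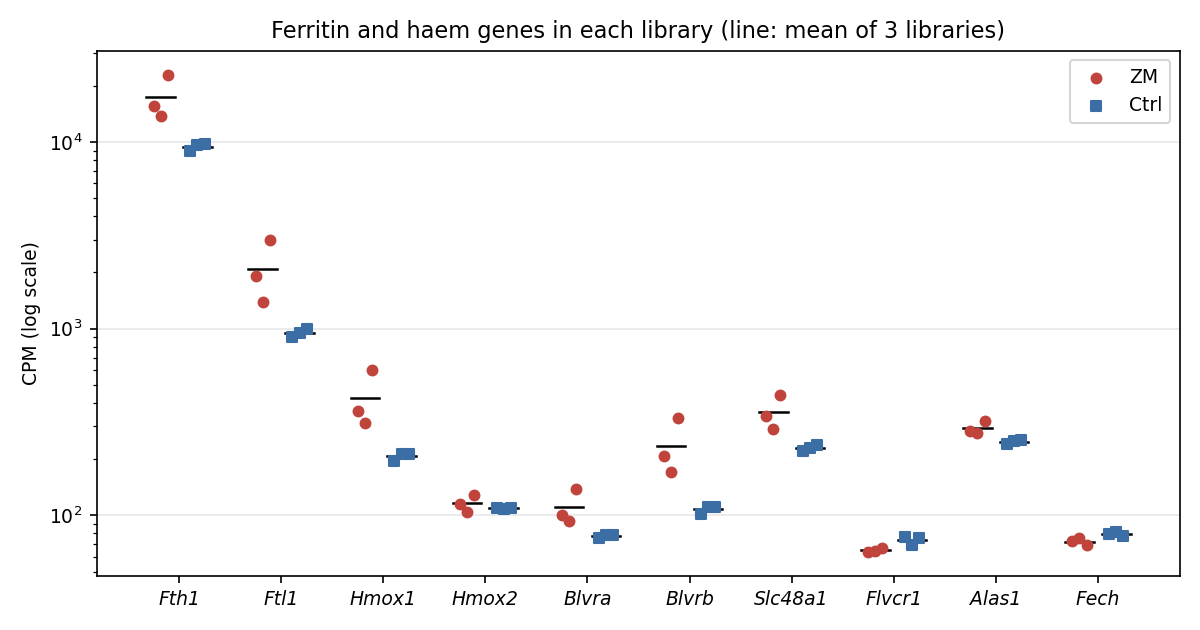
CPM (log axis) of the 10 genes in each library, ZM as circles and Ctrl as squares, with a line at each group mean. The ZM libraries lie above all Ctrl libraries for Fth1, Ftl1, Hmox1, Blvra, Blvrb, Slc48a1 and Alas1, below them for Flvcr1 and Fech, and on both sides for Hmox2.

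Fth1 (ENSMUSG00000024661, chromosome 19, 9980598 to 9985098 on GRCm38, forward strand) encodes the heavy chain, which oxidises ferrous iron for storage. It was at 15637, 13742 and 22958 CPM in ZM replicates 1, 2 and 3, and at 8983, 9601 and 9733 CPM in Ctrl replicates 1, 2 and 3. The lowest ZM library thus lay well above the highest Ctrl library. The means were 17446 ± 4867 CPM in ZM and 9439 ± 400.2 CPM in Ctrl (SD, n = 3 each), a log2 fold of 0.89 (SE 0.19), and 0.64 without ZM replicate 3. By counts, Fth1 ranked 2 among all genes in each ZM library and 4 in each Ctrl library.

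Ftl1 (ENSMUSG00000050708, chromosome 7, 45457944 to 45459884, reverse strand) encodes the light chain, which promotes mineralisation of the iron core. It was at 1921, 1384 and 2987 CPM in ZM replicates 1, 2 and 3, against 904, 947 and 992 CPM in Ctrl replicates 1, 2 and 3. The groups did not overlap, and ZM replicate 3 was the highest library. The means were 2098 ± 816 CPM in ZM and 948 ± 44.3 CPM in Ctrl, a log2 fold of 1.15 (SE 0.25), and 0.81 without ZM replicate 3. The rank of Ftl1 by counts was 31, 49 and 23 in ZM replicates 1, 2 and 3, and 110, 99 and 99 in Ctrl replicates 1, 2 and 3. Near-identical pseudogenes make the light chain count less certain: 3 such entries held counts equal to 1.97% of those of Ftl1, whereas 2 heavy chain pseudogenes held 0.00472% of those of Fth1. Ftl1 also overlaps the unclassified gene Gm10252 by 355 exonic bases on the opposite strand, with 607 counts there against 457380 for Ftl1.

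Together the ferritin chains took 1.75%, 1.54% and 2.38% of all counts in ZM replicates 1, 2 and 3, and 1.01%, 1.08% and 1.09% in Ctrl replicates 1, 2 and 3. The means were 1.89% ± 0.439 in ZM and 1.06% ± 0.0420 in Ctrl. Within a library, the ratio of Fth1 to Ftl1 in counts per base of the deposited gene length was 3.14, 3.84 and 2.97 in ZM replicates 1, 2 and 3, and 3.84, 3.92 and 3.79 in Ctrl replicates 1, 2 and 3. ZM replicate 2 lay among the Ctrl libraries, and the other ZM libraries lay below them. The size of this ratio depends on gene length: the deposited length of Fth1 is 3469 bases, the union of the exons of 9 transcripts, while its shortest transcript tagged as principal has 929 bases. With such transcript lengths, an alternative chosen after the data had been seen, the ratio was 8.94 ± 1.24 in ZM and 10.4 ± 0.173 in Ctrl.

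Hmox1 (ENSMUSG00000005413, chromosome 8, 75093621 to 75100589, forward strand) is the inducible haem oxygenase. It was at 363, 313 and 604 CPM in ZM replicates 1, 2 and 3, and at 195, 213 and 213 CPM in Ctrl replicates 1, 2 and 3. All ZM libraries lay above all Ctrl libraries. The means were 427 ± 156 CPM in ZM and 207 ± 10.3 CPM in Ctrl, a log2 fold of 1.04 (SE 0.23), and 0.71 without ZM replicate 3.

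Hmox2 (ENSMUSG00000004070, chromosome 16, 4726361 to 4766742, forward strand), the constitutive haem oxygenase, was at 115, 105 and 129 CPM in ZM replicates 1, 2 and 3, and at 109.9, 108 and 109.7 CPM in Ctrl replicates 1, 2 and 3. The groups overlapped, and the log2 fold was 0.09 (SE 0.10), and 0.01 without ZM replicate 3. Hmox2 shares 892 exonic bases with Cdip1 on the opposite strand, and Cdip1 had 11251 counts against 33906 for Hmox2. The strand setting of the counting is not given in the sources used here, so the level of Hmox2 is uncertain. Per base of deposited length, the ratio of Hmox1 to Hmox2 was 4.00, 3.78 and 5.95 in ZM replicates 1, 2 and 3, and 2.25, 2.50 and 2.45 in Ctrl replicates 1, 2 and 3. By these values, which share the uncertainty of Hmox2, the inducible form was the more abundant one in every library. Its excess was larger in each ZM library than in any Ctrl library. With the lengths of the shortest principal transcripts, the ratio was 2.96 ± 0.773 in ZM and 1.56 ± 0.0868 in Ctrl.

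Blvrb (ENSMUSG00000040466, chromosome 7, 27447978 to 27466144, forward strand), which encodes a flavin and biliverdin reductase, was at 207, 171 and 331 CPM in ZM replicates 1, 2 and 3, and at 102, 111 and 111 CPM in Ctrl replicates 1, 2 and 3. The groups were clearly apart. The means were 236 ± 84.3 CPM in ZM and 108 ± 5.20 CPM in Ctrl, a log2 fold of 1.13 (SE 0.23), and 0.81 without ZM replicate 3.

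Blvra (ENSMUSG00000001999, chromosome 2, 127070665 to 127097084, forward strand) is the main enzyme that reduces biliverdin to bilirubin in the adult. It was at 100.1, 93.0 and 138 CPM in ZM replicates 1, 2 and 3, and at 75.4, 78.9 and 78.5 CPM in Ctrl replicates 1, 2 and 3. The groups did not overlap, but the gene was not called (log2 fold 0.51, SE 0.15, and 0.32 without ZM replicate 3). DESeq2 called Blvra, as did edgeR without a filter, without ZM replicate 2 and without ZM replicate 3. Per base of deposited length, the ratio of Blvrb to Blvra was 1.82, 1.61 and 2.12 in ZM replicates 1, 2 and 3, and 1.19, 1.24 and 1.24 in Ctrl replicates 1, 2 and 3, again without overlap. With the lengths of the shortest principal transcripts, it was 2.37 ± 0.324 in ZM and 1.57 ± 0.0372 in Ctrl.

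**Figure D2:**
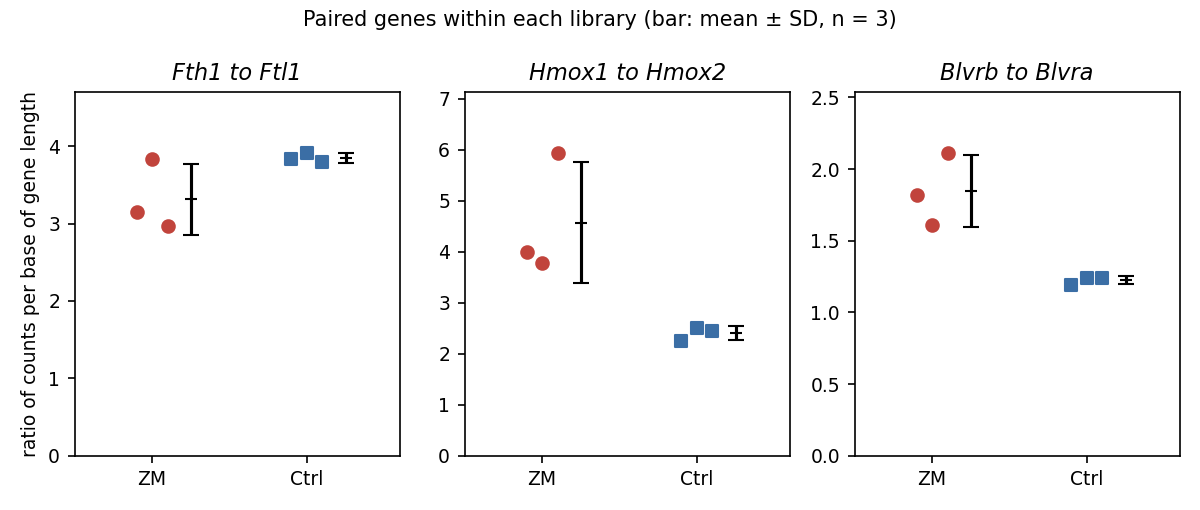
Ratio of counts per base of deposited gene length within each library, for Fth1 to Ftl1, Hmox1 to Hmox2 and Blvrb to Blvra, with ZM as circles, Ctrl as squares and bars for mean ± SD (n = 3). The Hmox1 to Hmox2 ratio averaged 4.57 in ZM and 2.40 in Ctrl, the Blvrb to Blvra ratio 1.85 in ZM and 1.22 in Ctrl, and the ferritin ratio overlapped between the groups.

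Slc48a1 (ENSMUSG00000081534, chromosome 15, 97778520 to 97792692, forward strand) encodes HRG1, which carries haem out of the phagolysosome into the cytosol. It was at 339, 290.1 and 443 CPM in ZM replicates 1, 2 and 3, and at 221, 229 and 238 CPM in Ctrl replicates 1, 2 and 3. All ZM libraries lay above the Ctrl libraries, with means of 357 ± 77.9 CPM in ZM and 229 ± 8.69 CPM in Ctrl (log2 fold 0.64, SE 0.15, and 0.46 without ZM replicate 3). Flvcr1 (ENSMUSG00000066595, chromosome 1, 191005847 to 191026158, reverse strand), described as a haem exporter and as a choline transporter of the cell surface, was at 63.8, 64.8 and 66.9 CPM in ZM replicates 1, 2 and 3, and at 76.3, 69.5 and 75.7 CPM in Ctrl replicates 1, 2 and 3. It was slightly lower in every ZM library than in any Ctrl library, but it was not called (log2 fold -0.18, SE 0.09, and -0.20 without ZM replicate 3). Slc48a1 shares 29 exonic bases with Hdac7 on the opposite strand, which had 2440 counts against 88302 for Slc48a1. Flvcr1 shares 809 exonic bases with A230020J21Rik on the opposite strand, which had 12 counts against 20900 for Flvcr1.

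Alas1 (ENSMUSG00000032786, chromosome 9, 106233455 to 106248654, reverse strand) encodes the rate-limiting enzyme of haem synthesis outside the red cell lineage. It was at 284, 277 and 318 CPM in ZM replicates 1, 2 and 3, and at 241, 250.2 and 254 CPM in Ctrl replicates 1, 2 and 3. The groups did not overlap, with a log2 fold of 0.24 (SE 0.09, and 0.18 without ZM replicate 3), and the gene was not called. Alas1 shares 465 exonic bases with 4930500F10Rik on the opposite strand, which had 30 counts against 81605 for Alas1. Fech (ENSMUSG00000024588, chromosome 18, 64452914 to 64490251, reverse strand) encodes ferrochelatase, which inserts iron into the finished ring. It was at 72.6, 75.4 and 69.3 CPM in ZM replicates 1, 2 and 3, and at 79.9, 81.9 and 77.2 CPM in Ctrl replicates 1, 2 and 3. It was lower in each ZM library than in any Ctrl library by a small margin and was not called (log2 fold -0.14, SE 0.08, and -0.11 without ZM replicate 3).

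Set against each other per length, in the authors' FPKM, the genes spanned a wide range. Fth1 was highest at 4868 ± 1074 FPKM in ZM and 2783 ± 110.1 FPKM in Ctrl, followed by Ftl1 at 1509 ± 503 in ZM and 723 ± 30.6 in Ctrl, Hmox1 at 235 ± 71.9 in ZM and 121 ± 5.78 in Ctrl, and Slc48a1 at 126 ± 20.4 in ZM and 85.2 ± 2.86 in Ctrl. Below them, Blvrb, Hmox2, Alas1 and Blvra had mean FPKM of 82.0, 51.1, 46.3 and 43.7 in ZM, and 39.7, 50.4, 41.2 and 32.4 in Ctrl. The order of Blvrb and Alas1 in Ctrl, and of Alas1 and Blvra in ZM, was within the spread between libraries. Flvcr1, at 12.3 ± 0.447 FPKM in ZM and 14.6 ± 0.705 in Ctrl, and Fech, at 5.12 ± 0.481 in ZM and 5.89 ± 0.203 in Ctrl, were lowest. The value of Fech rests on a deposited length of 13838 bases, the exon union of 15 transcripts. The order of the other genes also depends on such lengths. For Blvrb the union has 2782 bases and the shortest transcript tagged as principal 1028, whereas for Slc48a1 they have 2751 and 2536. The order with transcript lengths was not worked out.

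The ZM libraries differed more among themselves than the Ctrl libraries did. ZM replicate 3 had the highest level of all ZM libraries for 9 of the 10 genes, Fech being the exception. For 8 genes, all but Flvcr1 and Fech, the order was replicate 3, then 1, then 2, an order that 28.5% of all genes tested showed. The log2 of the level over the Ctrl mean was 1.66 in ZM replicate 3, 1.02 in replicate 1 and 0.55 in replicate 2 for Ftl1. It was 1.54, 0.81 and 0.60 for Hmox1 in the same order of libraries, and 1.62, 0.94 and 0.66 for Blvrb.

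**Figure D3:**
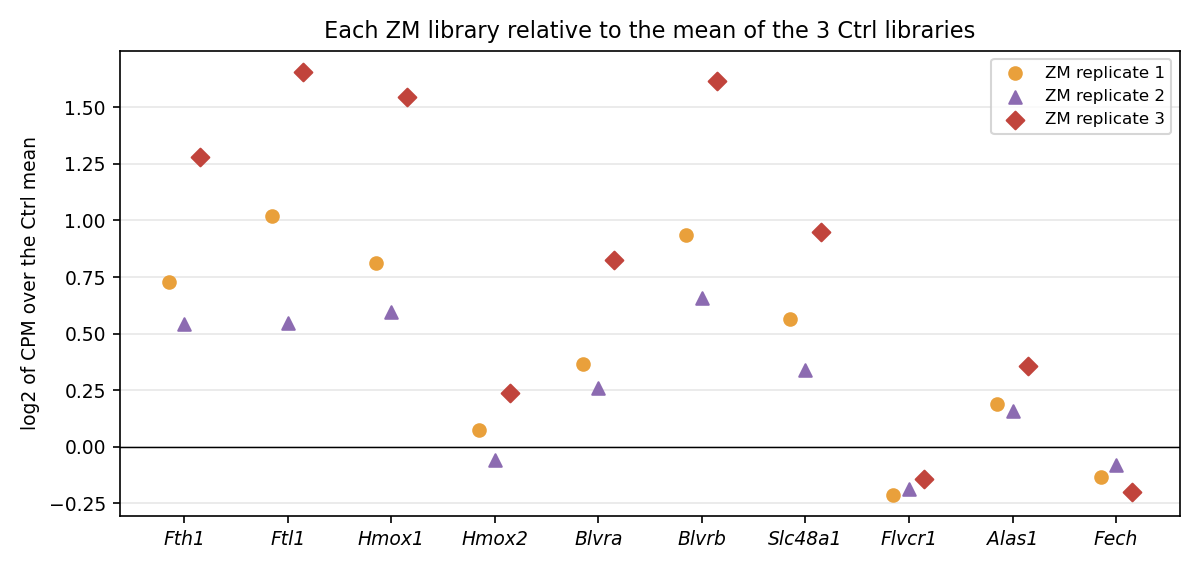
The log2 of CPM in each ZM library over the mean of the 3 Ctrl libraries, for the 10 genes; 0 marks the Ctrl mean. ZM replicate 3 lies highest for every gene but Fech, and all ZM libraries are above 0 for the 7 genes from which the Ctrl libraries are separated upward.

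Promoter windows of 300 bases, from 250 before to 50 after each annotated start, were available for 7 of the 10 genes from RefSeq (GRCm38.p6), as 12 windows; Hmox1, Slc48a1 and Fech had no entry. They were searched on both strands for TGACNNNGC, the core of the antioxidant response element that Nrf2 binds, since several of the genes are known Nrf2 targets. The core was in 12.4% of all 32851 mouse windows. It was in those of Flvcr1 and Blvra, which were not called, and in none of those of Fth1, Ftl1, Blvrb, Hmox2 and Alas1. The stretches below, with the match in capitals, show these matches, which are descriptions and not sites.
Flvcr1: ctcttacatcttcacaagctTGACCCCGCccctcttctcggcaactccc
Blvra: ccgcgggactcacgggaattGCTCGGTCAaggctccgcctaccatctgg
The Flvcr1 stretch is chr1:191026313-191026361 on the reverse strand, and its match starts 151 bases before the annotated start. The Blvra stretch is chr2:127070588-127070636 on the forward strand, with the core on the opposite strand, 49 bases before the start. Nothing follows from the missing matches about Nrf2, whose known elements for ferritin and Hmox1 lie farther upstream.

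Other genes of these pathways were described from 8 lists chosen by function with earlier results of these data known. For these lists, rose and fell mean called in that direction. Of 93 genes tested, 18 rose and 13 fell with ZM, with a median log2 fold of 0.06. Of all genes tested, 5.54% were called higher and 5.44% lower. As the lists were chosen with earlier results known, nothing is read from their counts. Without any 1 Ctrl library, 4 of the 31 calls remained (Cybb, Gclm, Ppargc1b and Ptgs2), and without ZM replicate 1, 16 of them did. All 31 remained without ZM replicate 2 or 3.

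The other enzymes of haem synthesis were not called: 0 of 7 by edgeR and 0 by limma-voom. EdgeR called 1 of them without ZM replicate 2 and 1 without ZM replicate 3. Ppox, the penultimate enzyme, had an unadjusted p under 0.05 and a call by DESeq2. It was at 32.9 ± 4.98 CPM in ZM and 24.4 ± 1.38 CPM in Ctrl, without overlap (log2 fold 0.43, SE 0.13, edgeR adjusted p = 0.0716). Their median log2 fold was -0.04. Alas2, the red cell form of the first enzyme, had 8, 18 and 1 counts in ZM replicates 1, 2 and 3, and 24, 25 and 13 counts in Ctrl replicates 1, 2 and 3. Of 12 genes for mitochondrial import and carriers, Slc25a37, the iron importer mitoferrin 1, rose to 68.8 ± 5.59 CPM in ZM, against 49.6 ± 2.99 CPM in Ctrl (adjusted p = 0.0303). Abcb8, a mitochondrial ABC transporter, fell to 48.5 ± 2.89 CPM in ZM, against 68.0 ± 3.29 CPM in Ctrl (adjusted p = 0.0216), and 10 were not called. Of 7 further genes of haem uptake and transport, 1 fell and 6 were not called. The fallen gene was Slc46a1, a folate transporter that can carry haem, at 10.96 ± 1.378 CPM in ZM and 15.9 ± 1.10 CPM in Ctrl (adjusted p = 0.0439).

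Ncoa4, the receptor that delivers ferritin to autophagosomes for breakdown, fell. It was at 109, 133.5 and 78.8 CPM in ZM replicates 1, 2 and 3, and at 188, 181 and 174 CPM in Ctrl replicates 1, 2 and 3, with no overlap. ZM replicate 3 was lowest, and the order of the ZM libraries was one that 28.7% of all genes tested showed. The log2 fold was -0.76 (SE 0.18, adjusted p = 0.0401), and the adjusted p was 0.0993 to 0.162 without ZM replicate 1 or any 1 Ctrl library. Among the 7 genes for ferritin handling, Atg5, needed for autophagosome formation, rose (57.59 ± 8.998 CPM in ZM and 40.4 ± 2.13 CPM in Ctrl, adjusted p = 0.0444) and 5 were not called, among them the iron chaperones Pcbp1 and Pcbp2 with log2 folds of 0.04 and 0.13.

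In the list of iron import, export and sensing, 2 of 14 genes rose, 4 fell and 8 were not called. The iron exporter Slc40a1 was at 46.7, 45.4 and 181 CPM in ZM replicates 1, 2 and 3, against 11.5 to 14.6 CPM in Ctrl (log2 fold 2.80, SE 0.55, adjusted p = 0.0240). Its log2 fold was 1.82 when ZM replicate 3 was left out. The transferrin receptor Tfrc was at 54.7, 66.7 and 25.04 CPM in ZM replicates 1, 2 and 3, against 203 to 233 CPM in Ctrl (log2 fold -2.15, SE 0.32, adjusted p = 0.0103). Slc11a1, a metal transporter of phagosomes, rose as well (log2 fold 1.14, adjusted p = 0.0123), whereas the ferrireductases Steap3 and Steap4 and Aco1, which encodes iron regulatory protein 1, fell, with log2 folds of -0.49, -2.26 and -0.34. Steap4 was under 3 CPM in all libraries. When any 1 Ctrl library was left out, these 6 genes lost the call, and Steap3 and Aco1 also lost it when ZM replicate 1 was left out; the adjusted p then lay between 0.0529 and 0.186.

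Among regulators, 2 of 14 rose, 2 fell and 10 were not called. Nfe2l2, which encodes Nrf2, was at 272, 248 and 351 CPM in ZM replicates 1, 2 and 3, and at 175, 167 and 174 CPM in Ctrl replicates 1, 2 and 3, with no overlap (log2 fold 0.76, SE 0.14, adjusted p = 0.0189). Its partner Mafg rose to 120 ± 13.2 CPM in ZM, against 84.0 ± 4.33 CPM in Ctrl (adjusted p = 0.0289). Bach1, the haem-regulated repressor, was at 105, 130 and 114 CPM in ZM replicates 1, 2 and 3, and at 119, 113 and 112 CPM in Ctrl replicates 1, 2 and 3, with overlapping groups and a log2 fold of 0.02 (SE 0.10). Nr1d1, a haem-binding nuclear receptor, and Ppargc1b, a coactivator of mitochondrial genes, fell with log2 folds of -0.81 and -1.88 (adjusted p = 0.0263 and 0.00235). Of these calls, that of Ppargc1b held without any 1 library.

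Of 13 other Nrf2 target genes, 9 rose, 0 fell and 4 were not called, with a median log2 fold of 0.54. Of all genes tested, 5.54% were called higher and 5.44% lower. The smallest adjusted p belonged to Gclm, a subunit of the enzyme that starts glutathione synthesis, at 309 ± 76.3 CPM in ZM and 114 ± 1.85 CPM in Ctrl (log2 fold 1.44, adjusted p = 0.00482). Srxn1 and Prdx1, of the peroxiredoxin system, rose with log2 folds of 0.58 and 0.94, and G6pdx and Pgd, of the pentose phosphate pathway, with log2 folds of 0.85 and 0.71 (adjusted p = 0.0103, 0.0233, 0.00991 and 0.0317 in this order). Without single Ctrl libraries all but Gclm among these lost the call, and Prdx1 and Pgd also without ZM replicate 1. Of the genes not called, Txnrd1 and Tkt overlapped between the groups, each with a log2 fold of 0.06. Slc7a11 and Me1 were higher without overlap, with log2 folds of 0.54 and 0.21.

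Genes for haem-containing proteins and for the assembly of haem a and c were mixed. Of 19 such genes, 3 rose and 4 fell, and 12 had no call. Cybb, the haem-bearing subunit of the phagocyte NADPH oxidase, was at 1314, 1461 and 1838 CPM in ZM replicates 1, 2 and 3, against 538 to 552 CPM in Ctrl (log2 fold 1.49, SE 0.13, adjusted p = 0.00235), and its call held without any 1 library. Catalase (Cat) rose to 542 ± 135 CPM in ZM, against 263 ± 4.97 CPM in Ctrl (adjusted p = 0.0128), and Ptgs1, a cyclooxygenase, to 81.9 ± 9.06 CPM in ZM, against 49.8 ± 1.34 CPM in Ctrl (adjusted p = 0.00938). The fallen genes were Ptgs2, the inducible cyclooxygenase, at 1.27 ± 0.238 CPM in ZM and 5.11 ± 0.319 CPM in Ctrl (adjusted p = 0.00284), and the respiratory chain genes Cyc1, Cycs and Sdhd, with log2 folds of -0.55, -0.67 and -0.38. Cat, Ptgs1, Cyc1 and Cycs lost the call without any 1 Ctrl library, and Sdhd also without ZM replicate 1.

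**Figure D4:**
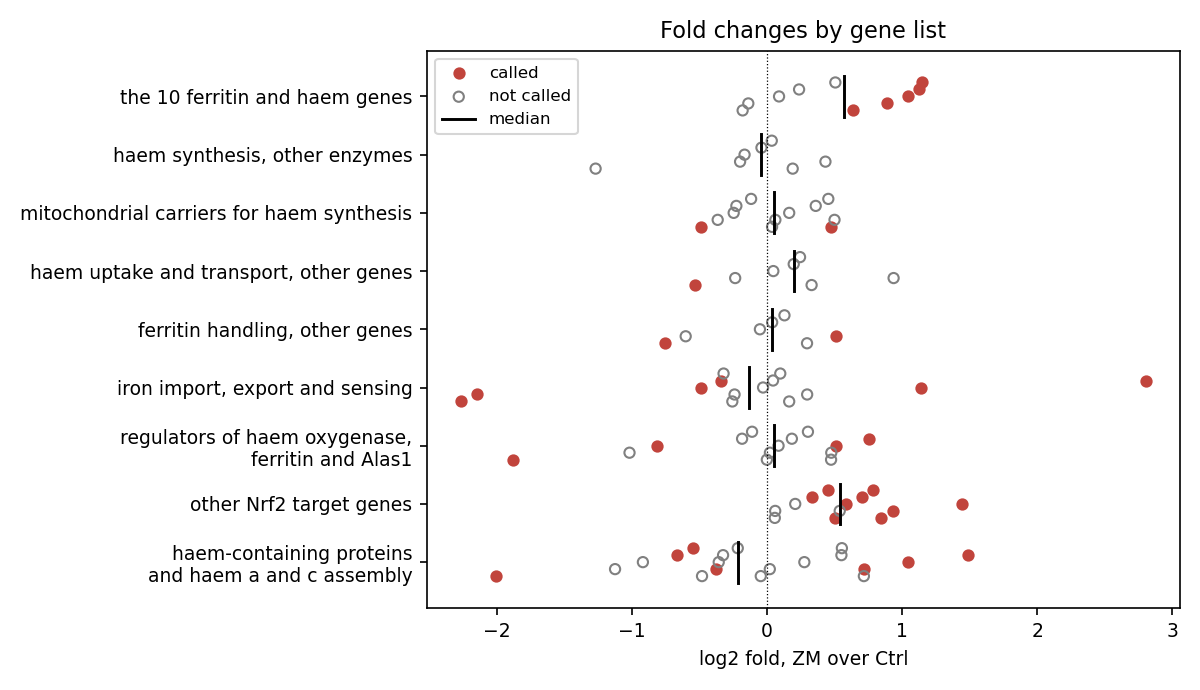
Log2 fold of ZM over Ctrl for the 10 ferritin and haem genes and for each gene of the 8 lists, filled where called, with a line at the median of each list. Medians are 0.57 for the 10 genes, 0.54 for other Nrf2 targets and between -0.22 and 0.20 for the other lists.

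Markers of other bone marrow cells were scarce, except those of megakaryocytes and endothelial cells. Erythroid markers, relevant here because red cell precursors make most of the body's haem, summed to 0.869 to 1.17 CPM in ZM and 3.82 to 4.31 CPM in Ctrl, with 1 of 3 tested markers called lower. Neutrophil markers summed to 1.85 to 2.00 CPM in ZM and 1.80 to 2.85 CPM in Ctrl (1 of 2 called lower), B cell markers to 0.669 to 1.67 CPM in ZM and 0.364 to 0.597 CPM in Ctrl (0 of 1 called), and T cell markers to 0.115 to 0.148 CPM in ZM and 0.334 to 0.716 CPM in Ctrl (1 of 1 called lower). Mast cell and basophil markers had 0 counts in ZM and at most 0.0796 CPM in Ctrl, and stromal markers summed to 2.88 to 4.26 CPM in ZM and 1.89 to 3.84 CPM in Ctrl (0 of 4 called). Megakaryocyte markers, nearly all Pf4, summed to 18.8 to 38.6 CPM in ZM and 5.68 to 8.92 CPM in Ctrl (2 of 3 called higher), and endothelial markers, nearly all the VEGF receptor Kdr, to 7.18 to 21.2 CPM in ZM and 41.2 to 51.8 CPM in Ctrl (1 of 3 called lower).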

How the data were processed

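The deposited table held whole-number counts per gene for 6 libraries, which the authors had not normalized, and FPKM. The build mm10 and the tools Subread, featureCounts 2.0.3, HISAT2 2.2.1 and DESeq2 are named, without roles, in the submitters' processing notes; annotation release, strand setting and filters are not given in the sources used here. The deposited FPKM were the authors' counts over gene length and column total, since the length recovered was whole within 0.001 bases for all 26106 genes; they served to set levels of genes side by side and entered no test. Even numbers made up 72.7% to 76.4% of the counts from 1 to 20, and the cause was not tested.

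Counts were tested with edgeR 4.0.16 (R 4.3.3): filterByExpr left 15590 genes (99.95% of counts), then TMM, the quasi-likelihood F test on group, and Benjamini-Hochberg adjustment across the genes kept (threshold 0.05). Dividing the size of a log2 fold by the square root of F gave its standard error (SE). With 3 libraries per group, spread between libraries, not depth, limits precision. The test was also run on simulated counts, drawn without any shift of a whole library. The outcome of that run is not given here, and nothing is read from it. Positions are from GENCODE M21, where 98.4% of identifiers were found.

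The 10 genes, the lists and the rule for named genes were chosen with earlier results of these data known. Named were the 10 genes, up to 5 called genes of each list by smallest adjusted p, and Alas2, haemoglobin genes and Slc40a1. Aco1, Cycs, Sdhd, Ppox, Bach1, Pcbp1, Pcbp2, Txnrd1, Tkt, Slc7a11 and Me1 were added after their values were seen. Same-numbered ZM and Ctrl libraries were checked for shared deviations. Alternatives were RLE size factors, no factor, upper-quartile factors, TMM without the 20 most abundant genes, DESeq2 1.42.0, limma-voom (limma 3.58.1), a minimum of 1 CPM in every library, no filter at all, the replicate number as a block, and each library left out.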

Additional observations from a re-analysis of the deposited data

How the results depend on the processing

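All 10 log2 folds kept their sign in each of the 15 alternatives. Of the alternative values, 147 moved by less than the SD between ZM libraries (log2 scale) and 3 by more (Flvcr1 without a composition factor and without Ctrl replicate 2, and Fech without a composition factor). Leaving out 1 of 3 ZM libraries can hardly move a log2 fold by that SD, so the limit says little about those values. Without ZM replicate 3, the log2 fold went from 0.89 to 0.64 for Fth1 and from 1.15 to 0.81 for Ftl1, both within the limit. The 5 calls among the 10 genes held under every scaling, filter and tool, and DESeq2 and edgeR without a filter called 6. Leaving out 1 library gave 0 to 6 called genes of the 10, 4 to 50 of the 8 lists and 148 to 5023 of all genes tested, where the full set gave 5, 31 and 1711. DESeq2 called 3295 of all genes and 47 of the lists. The cause of these shifts was not tested. The ferritin share was 0.83 percentage points higher in ZM than in Ctrl, with 0.58 to 1.00 when single libraries were left out, and the log2 difference in the Fth1 to Ftl1 ratio was -0.22, with -0.33 to -0.15. Same-numbered libraries were not treated as pairs in the main fit. The r of their deviations was 0.06, 0.04 and 0.14 across 12324 genes, and -0.22 to 0.18 between libraries of unlike number. Not every library correlated best with its own number. With 3 libraries per group and no label for animal or culture, these values cannot show whether the libraries were paired. With the replicate block, 1679 of all genes, 5 of the 10 genes and 24 of the lists were called.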

Other observations

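Haemoglobin transcripts, which mark red cell precursors, were present at trace levels in each group. Hbb-bs had 16, 20 and 20 counts in ZM replicates 1, 2 and 3, and 119, 91 and 127 counts in Ctrl replicates 1, 2 and 3. Hba-a1 had 23, 8 and 4 counts in ZM replicates 1, 2 and 3, and 31, 55 and 24 counts in Ctrl replicates 1, 2 and 3. Hba-a2 and Hbb-bt had at most 6 and 2 counts in a ZM library, and at most 17 and 8 in a Ctrl library. The ferritin light chain pseudogene Ftl1-ps1 had 1928, 1300 and 2935 counts in ZM replicates 1, 2 and 3, and 724, 889 and 1059 counts in Ctrl replicates 1, 2 and 3. Its order across the ZM libraries was that of Ftl1, and 28.5% of all genes tested showed this order. The counting of reads shared between these near-identical copies is not given in the sources used here.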
